A study of Saccharomyces cerevisiae with 24 samples.

Results

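The comparison set yeast that lack the transcription factor Yap1 and received a mild dose of hydrogen peroxide beside wild type yeast that received an acute dose. It used 8 of the 24 two-colour arrays of the series. On 4 arrays the treated RNA came from the yap1 deletion strain (yap1Δ) given 0.1 mM H2O2, and on 4 arrays it came from wild type cells given 0.4 mM H2O2 for 1 h without an earlier dose. The design text gives 45 min for the mild dose, whereas the methods can be read as the same 1 h as for the acute dose, so the times may or may not have matched. In every case the other channel held RNA from untreated cells. The study's methods give BY4741, a laboratory haploid, as the wild type and take yap1Δ from the yeast deletion collection in that background, so the mutant is a single strain. The labels do not name the strain of the untreated RNA on the yap1Δ arrays, so a change caused by the peroxide and a standing difference between yap1Δ and wild type cells cannot be told apart there. All open reading frames (ORFs) with a value on the 8 arrays were taken, 5617 of the 6251 in the table. Each value is log2 of treated over untreated intensity, and strain, dose and array set, and possibly time, differ together between the groups and cannot be told apart.

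Yap1 is the main activator of the peroxide response in budding yeast. Peroxide oxidises it through the peroxidase Hyr1 (also called Gpx3), the oxidised protein stays in the nucleus, and it switches on thioredoxin and glutathione genes, old yellow enzymes, and pumps that export or sequester toxic compounds. Peroxide also sets off programs that Yap1 does not command alone: the Msn2 and Msn4 general stress response, the heat shock response of Hsf1, proteasome induction by Rpn4, the DNA damage checkpoint, and a fall in the RNA of ribosomal proteins and ribosome assembly factors. The comparison therefore asked how far the mild response of a strain without Yap1 followed the acute response of a strain with it, and which genes left that common pattern.

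The targeted gene could not be compared. YAP1 had log2 ratios of 2.28, 2.32, 2.06 and 2.20 on the acute arrays (mean 2.21 ± 0.12, SD, n = 4) and no value on any yap1Δ array. Since 631 ORFs lacked a value there, against 9 on each acute array, the gap does not by itself check the label. The markers fitted a mating type a haploid with URA3 deleted in both groups. MFA1 and STE2, genes of mating type a, lay between the 92.4th and 97.4th percentile of intensity on all 8 arrays, and URA3 lay between the 0.39th and 2.47th. Median intensity was 680 to 703 on the acute arrays and 1196 to 1222 on the yap1Δ arrays. The deposited values had been quantile normalized within each group, so the 4 arrays of a group share practically the same set of ratios, with SDs of 0.975 to 0.979 (acute) and 0.447 (yap1Δ, 0.448 on the widest) on the log2 scale. Genes at the ends of that set have an understated spread: the top value, 6.62 in acute cells and 3.91 in yap1Δ, is a ceiling. Replicates 1 and 2 of each group carried the treated RNA in Cy5 and replicates 3 and 4 in Cy3. Arrays of the same group correlated over ORFs at 0.897 to 0.970 (acute) and 0.914 to 0.926 (yap1Δ) within a dye orientation, and at 0.593 to 0.732 and 0.257 to 0.438 across orientations. The design text and the methods describe the 4 arrays of a group as biological replicates, each acute replicate grown from its own colony.

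The yap1Δ cells at 0.1 mM gave a compressed version of the acute wild type pattern. Across the 5617 ORFs, the yap1Δ mean rose by 0.322 log2 units for each log2 unit of the acute mean (least squares line, r = 0.783 over ORFs, a description since ORFs are not independent replicates). The 4 single yap1Δ arrays gave slopes of 0.288, 0.351, 0.320 and 0.329. Fitted on ORFs above 0 in acute cells alone (2687 ORFs), the slope was 0.363, and on those below 0 (2930 ORFs) it was 0.231. The 45 ORFs that rose by 3 or more in acute cells had a median of 1.20 in yap1Δ with quartiles of 0.67 and 1.55, the 402 between 1 and 2 had a median of 0.54, and the 532 between -2 and -1 had a median of -0.35. Least squares lowers a slope where the x axis is noisy; the ratio of the SDs of both means was 0.411. Arrays of the same dye orientation, which share a dye effect, gave 0.326 (Cy5) and 0.341 (Cy3). Arrays of opposite orientation, where a dye effect enters with opposite signs, gave 0.210 and 0.207. Neither kind of pair is free of dye effects, whereas 0.322 came from means over both orientations in each group.

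**Figure D1:**
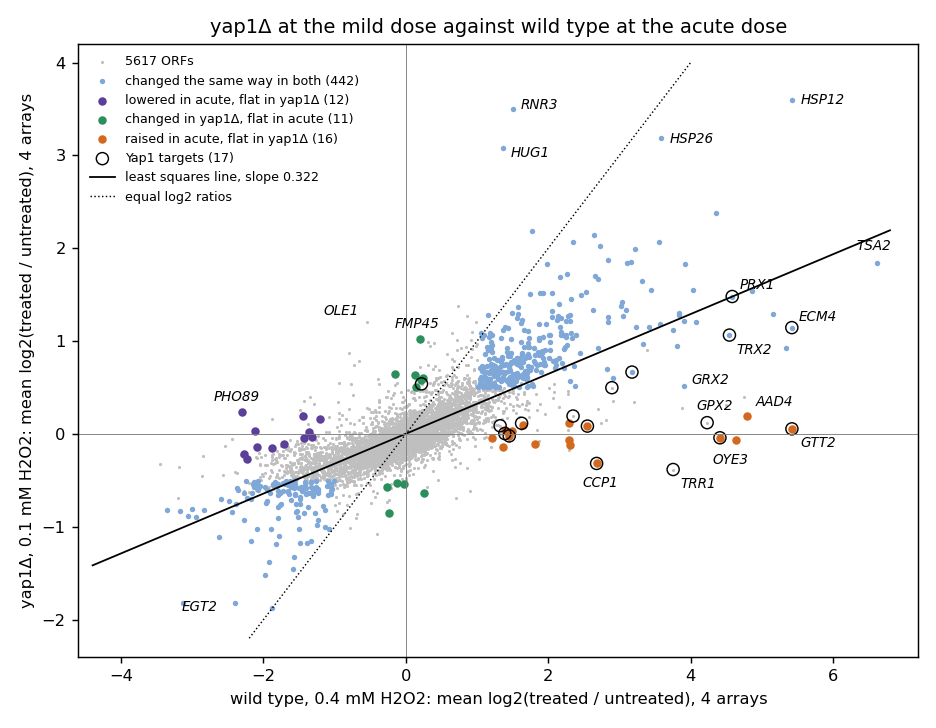
Mean log2(treated / untreated) of each of 5617 ORFs in yap1Δ at 0.1 mM H2O2 (y axis, 4 arrays) against wild type at 0.4 mM (x axis, 4 arrays). Most ORFs follow the solid line of slope 0.322, well under the dotted line of equal ratios; many Yap1 targets (open circles) lie near 0 on the y axis at acute means of 1.32 to 5.42, and RNR3, HUG1, HSP12 and HSP26 lie far above the line.

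Each ORF was then tested with limma, with a dye term for each ORF and Benjamini-Hochberg adjustment over all 5617 (called at an adjusted p under 0.05). In acute wild type cells 1826 ORFs rose (32.5% of those tested) and 1968 fell (35%). In yap1Δ cells 711 rose (12.7%) and 662 fell (11.8%). That split was not firm: 770 rose and 496 fell with arrays centred on their median, 775 and 488 after loess, 328 and 118 without the dye term, and 442 and 221 without yap1Δ replicate 2. Of the 711 that rose in yap1Δ, 666 (93.7%) also rose in acute cells, which is 36.5% of the acute list; of the 662 that fell, 607 (91.7%) also fell in acute cells, which is 30.8% of that list. A further 25 ORFs were called in opposite directions, 11 up in acute cells and down in yap1Δ and 14 the reverse. The direct contrast found 1069 ORFs higher in yap1Δ than in acute cells (19%) and 1018 lower (18.1%). The number called in yap1Δ rested on every array of that group: without replicates 1, 2, 3 and 4 it was 853, 663, 808 and 690 in place of 1373.

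Among the strains given the mild dose, the yap1Δ arrays followed the acute pattern most closely. Over the 4373 ORFs with values on all 24 arrays, the slope of a single yap1Δ array on the acute mean was 0.318 ± 0.027 (SD, n = 4). It was 0.016 ± 0.065 for wild type, 0.041 ± 0.0080 for mga2Δ and 0.010 ± 0.034 for rox1Δ, strains that lack the activator Mga2 and the hypoxic repressor Rox1, with n = 4 each. Every yap1Δ array (0.282 to 0.347) lay above every array of the other strains (-0.056 to 0.076). A slope also scales with the spread of the ratios. The SD of the mean ratios was 0.367 in yap1Δ, 0.148 in wild type, 0.093 in mga2Δ and 0.133 in rox1Δ. Group means correlated with the acute mean at 0.797 for yap1Δ, 0.408 for mga2Δ, 0.098 for wild type and 0.072 for rox1Δ. The mean slopes differed by 0.302, 0.277 and 0.308 from wild type, mga2Δ and rox1Δ, each with an exact two-sided permutation p of 0.029 (adjusted p = 0.029 over the 3 tests), the smallest that 4 against 4 arrays allow. The yap1Δ arrays were quantile normalized together, so their slopes share 1 spread of ratios, and the p does not allow for that.

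**Figure D2:**
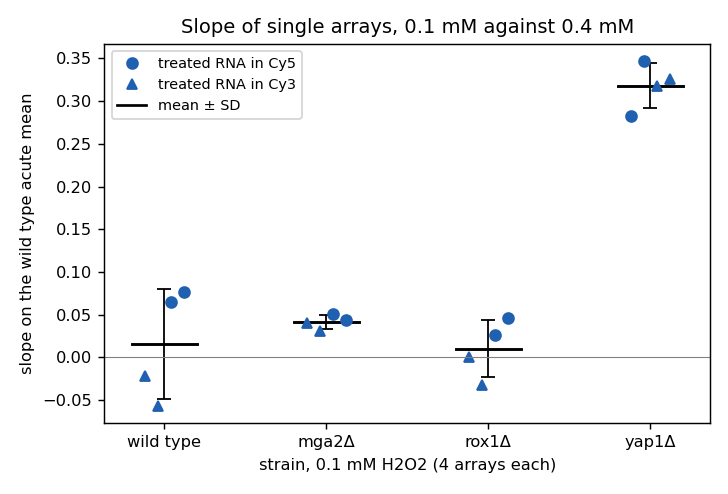
Slope of each array of cells given 0.1 mM H2O2 on the mean of the 4 wild type acute arrays (y axis), by strain (x axis), over 4373 ORFs; bars give the mean and SD of 4 arrays and symbols the dye of the treated RNA. The yap1Δ arrays sit at 0.282 to 0.347 and the other 12 arrays between -0.056 and 0.076.

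To find genes off the common pattern, each ORF's yap1Δ mean was set against the value that the line gives for its acute mean, and this departure was tested in the same limma fit with the line taken as fixed. A total of 132 ORFs lay above the line (2.35%) and 65 below it (1.16%). Of the 65 below, 36 had risen in acute cells. Classes were then formed by size. An ORF was called changed at an adjusted p under 0.05 and a log2 ratio of at least 1 in acute cells or 0.5 in yap1Δ, and flat where the 95% interval of its mean lay within -0.5 to 0.5. By these limits 16 ORFs rose in acute cells, were flat in yap1Δ and lay off the line (0.285% of ORFs tested), 12 fell in acute cells and were flat in yap1Δ (0.214%), 11 changed in yap1Δ and were flat in acute cells (0.196%), none changed in opposite directions and 442 changed the same way in both (7.87%), of which 307 rose and 135 fell. The counts off the line were fragile: without yap1Δ replicates 1, 2, 3 and 4 the 197 departures became 69, 73, 73 and 69, and the 16 ORFs raised in acute cells and flat in yap1Δ became 5, 7, 4 and 4; without acute replicate 1 they became 9. Of the 72 named genes called off the line, 19 kept that call in each alternative run on the ORF values.

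Of the canonical Yap1 targets measured, 8 of 17 lay below the line and none above it, where 1.16% and 2.35% of all ORFs lay. Of 20 listed targets, 17 had values on the 8 arrays, and 16 of these rose in acute cells, whereas 6 rose and 2 fell in yap1Δ. Shares over all ORFs were 32.5% raised in acute cells, and 12.7% raised and 11.8% lowered in yap1Δ. Their median log2 ratio was 2.89 in acute cells and 0.12 in yap1Δ, and their median departure was -0.49; over all ORFs tested these medians were -0.03, -0.05 and -0.02. Those below the line were TRR1, GTT2, OYE3, GPX2, CCP1, FLR1, ECM4 and YCF1. In wild type cells at the mild dose FLR1 averaged 0.01, GPX2 -1.61 and PRX1, a target not called below the line, -0.29. For FLR1 a mean near 0 at this dose was thus not particular to yap1Δ, and GPX2 and PRX1 averaged lower in wild type. The strains were not tested against each other on these genes.

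**Figure D3:**
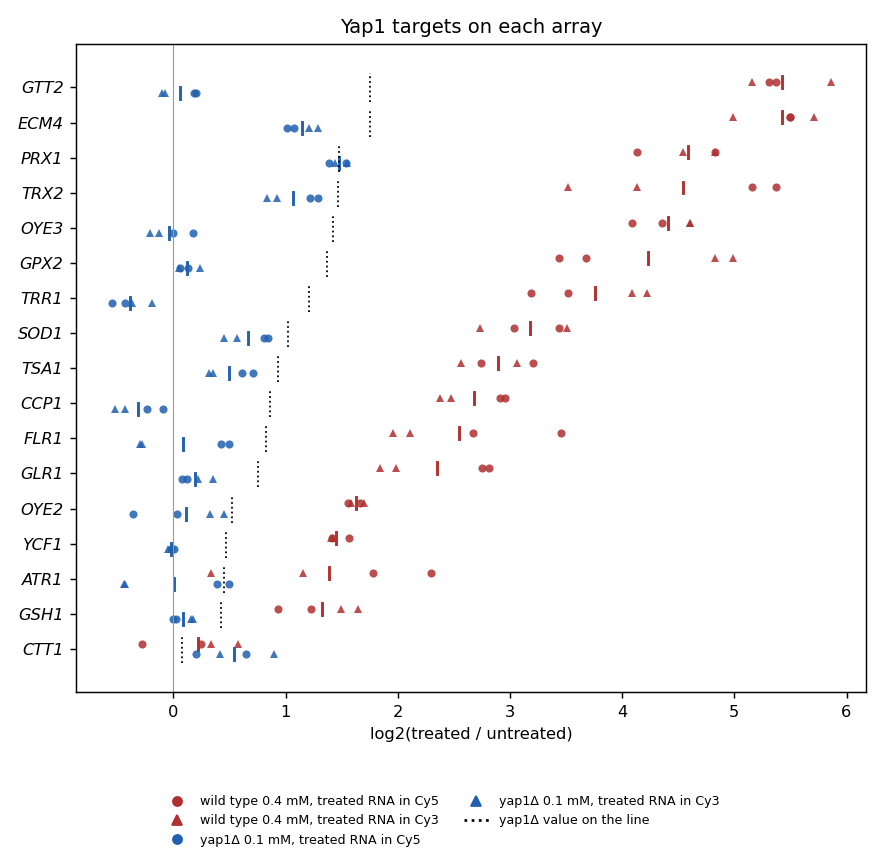
log2(treated / untreated) of the 17 measured Yap1 targets (y axis) on each of the 8 arrays; red is wild type at 0.4 mM, blue is yap1Δ at 0.1 mM, circles and triangles give the dye of the treated RNA, solid ticks the group means and dotted ticks the yap1Δ value on the common line. GTT2, OYE3, GPX2, TRR1 and CCP1 reach 2.68 to 5.42 in wild type and stay between -0.38 and 0.12 in yap1Δ, whereas PRX1 sits on its dotted tick.

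TRR1, the cytosolic thioredoxin reductase that returns oxidised thioredoxin to its working form, gave 3.52, 3.19, 4.22 and 4.08 on the acute arrays. On the yap1Δ arrays it gave -0.55, -0.43, -0.19 and -0.37. All 4 yap1Δ values lay below 0 and all acute values above 3, and the mean fell by 0.38 ± 0.11 (SE, n = 4) in yap1Δ (limma adjusted p = 0.030). Its departure of -1.59 ± 0.11 (SE, limma adjusted p = 0.00013) passed the test in each of 17 alternatives. CCP1, the mitochondrial cytochrome c peroxidase, showed the same turn of direction: it gave 2.96, 2.91, 2.47 and 2.38 in acute cells and -0.09, -0.23, -0.43 and -0.52 in yap1Δ. The yap1Δ mean of -0.32 ± 0.07 (limma adjusted p = 0.015) passed the test although its interval lay within the flat limits.

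GTT2, a glutathione S-transferase, lay farthest below the line of the 5617 ORFs. It gave 5.31, 5.37, 5.86 and 5.16 in acute cells and 0.19, 0.21, -0.07 and -0.10 in yap1Δ, with a departure of -1.69 ± 0.12 (limma adjusted p = 0.00015). The yap1Δ values sat around 0 and took the sign of the dye orientation, while each acute value was at least 5.16. OYE3, an old yellow enzyme that reduces reactive aldehydes and ketones, gave 4.08, 4.36, 4.60 and 4.60 in acute cells. In yap1Δ it gave -0.01, 0.18, -0.12 and -0.21, with a departure of -1.47 ± 0.11 (limma adjusted p = 0.00020). GPX2, a glutathione peroxidase homologue, gave 3.68, 3.43, 4.83 and 4.99 against 0.06, 0.14, 0.24 and 0.05. Its departure was -1.24 ± 0.18 (limma adjusted p = 0.0064, and 0.076 without the dye term); its spread in acute cells kept its interval outside the flat limits.

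The transporters on the list had acute means of 1.39 to 2.55. FLR1, a plasma membrane drug exporter, gave 2.67, 3.45, 1.96 and 2.11 in acute cells. In yap1Δ it gave 0.42 and 0.50 in one dye orientation and -0.28 and -0.30 in the other, so its mean of 0.08 averages dye-dependent values and its departure of -0.74 was not called without the dye term (adjusted p = 0.42). YCF1, which pumps glutathione conjugates and cadmium into the vacuole, was tighter: 1.56, 1.42, 1.43 and 1.40 against 0.00, -0.02, -0.02 and -0.04. Its departure of -0.49 ± 0.07 had an adjusted p of 0.0076, and of 0.067 and 0.059 without yap1Δ replicates 2 and 4. ATR1, a further exporter, averaged 1.39 and 0.00 and did not pass the departure test (adjusted p = 0.18).

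Other Yap1 targets rose in yap1Δ as well. PRX1, the mitochondrial peroxiredoxin, gave 4.83, 4.14, 4.54 and 4.83 in acute cells and 1.39, 1.54, 1.44 and 1.55 in yap1Δ. These means of 4.58 and 1.48 put it on the line (departure 0.00 ± 0.12, SE). TRX2, a cytosolic thioredoxin, gave 5.37, 5.16, 3.52 and 4.14 against 1.22, 1.29, 0.83 and 0.92, with a departure of -0.40 that did not pass the test (adjusted p = 0.30). ECM4, a glutathione transferase, rose to 5.42 and 1.15, and its departure of -0.60 (adjusted p = 0.028) reached an adjusted p of 0.21 without yap1Δ replicate 2. SOD1, the copper and zinc superoxide dismutase, averaged 3.18 and 0.67, TSA1, the main cytosolic peroxiredoxin, 2.89 and 0.50, and both rose in each group. TSA1 and TSA2 are close copies, so their signals may not be fully separate. CTT1, the cytosolic catalase, ran the other way, with 0.22 in acute cells, which did not pass the test, and a rise of 0.54 ± 0.13 (SE, adjusted p = 0.014) in yap1Δ. GLR1, OYE2 and GSH1 had means of 2.35, 1.63 and 1.32 in acute cells and of 0.19, 0.12 and 0.09 in yap1Δ, where none passed the test. SRX1, which repairs overoxidised peroxiredoxins, the peroxiredoxin AHP1, and FRM2 had no value on the yap1Δ arrays. In acute cells SRX1 averaged 5.61 ± 0.27 and FRM2 averaged 1.39 ± 0.30 (SD, n = 4), while AHP1 gave 4.54 and 4.18 in one orientation and 1.25 and 1.90 in the other.

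In the thioredoxin system, all 9 measured members of 11 rose in acute cells, where 32.5% of all ORFs did, and 7 rose and 1 fell in yap1Δ, where 12.7% of all ORFs rose, with medians of 2.89 and 0.50. TRR1 alone of them lay off the line. TSA2, a stress-induced cytosolic peroxiredoxin, stood at the ceiling of 6.62 on all 4 acute arrays and gave 1.90, 1.92, 1.68 and 1.85 in yap1Δ (departure -0.30, adjusted p = 0.074). The mitochondrial members TRX3 and TRR2 had means of 0.48 and 0.63 in acute cells and rose by 0.62 and 0.39 in yap1Δ, and the nuclear peroxiredoxin DOT5 had 0.72 and 0.40. TRX1 gave 0.13 in yap1Δ, which did not pass the test.

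In the glutathione system all 12 members rose in acute cells and 6 rose in yap1Δ, where 32.5% and 12.7% of all ORFs rose. The medians were 1.65 and 0.36, with 2 members above the line (2.35% of all ORFs) and 4 below it (1.16%). Those above were GTT1, a glutathione transferase, with 1.57 in acute cells and 1.36 in yap1Δ (departure 0.85 ± 0.16, adjusted p = 0.021), and the glutaredoxin GRX1, with 1.72 and 1.11 (0.56 ± 0.11, adjusted p = 0.026). The other pair of the same enzyme families fell below it: GTT2 as given above, and GRX2, a major cytosolic glutaredoxin, with 3.53, 3.58, 4.08 and 4.43 in acute cells and 0.50, 0.55, 0.60 and 0.42 in yap1Δ (departure -0.74 ± 0.12, adjusted p = 0.011). The calls of GTT1, GRX1 and GRX2 were each lost without the dye term (adjusted p = 0.12, 0.096 and 0.085), those of GTT1 and GRX1 also without any single yap1Δ array (adjusted p up to 0.13 and 0.15), and that of GRX2 without yap1Δ replicate 3 or 4. The peroxidases GPX1 and HYR1 had means of 0.87 and 1.07 in acute cells and 0.74 and 0.73 in yap1Δ. The biosynthetic enzymes GSH1 and GSH2 gave 0.09 and -0.05 in yap1Δ, and neither passed the test. Of the 6 superoxide and catalase enzymes, 5 rose in acute cells, and 3 rose and 1 fell in yap1Δ. SOD2, the mitochondrial manganese enzyme, lay below the line with CCP1: it gave 3.09, 3.07, 2.51 and 2.98 against 0.37, 0.45, 0.33 and 0.26 (departure -0.59 ± 0.10, adjusted p = 0.011, and up to 0.084 without a single yap1Δ array).

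Beyond the listed Yap1 targets, 11 of the 16 ORFs that rose in acute cells and were flat in yap1Δ were on no Yap1 list used here. AAD4, a putative aryl-alcohol dehydrogenase, gave 4.43, 4.83, 5.16 and 4.73 in acute cells and 0.15, 0.31, 0.21 and 0.12 in yap1Δ (departure -1.35 ± 0.11, limma adjusted p = 0.00034). HBN1 (YCL027C-A), a protein related to bacterial nitroreductases as FRM2 is, gave 4.73, 5.31, 4.14 and 4.36 against -0.61, 0.21, -0.14 and 0.27 (departure -1.56 ± 0.20, adjusted p = 0.0033). CYC1, the main form of cytochrome c, gave 2.23, 2.58, 2.20 and 2.25 against 0.07, -0.17, -0.32 and -0.07 (departure -0.87 ± 0.09, adjusted p = 0.0018). The acute means of the others were 1.81 for IBA57, which matures iron-sulfur clusters, 1.37 for the mitochondrial aldehyde dehydrogenase ALD4, 1.21 for CYT2, which attaches haem to cytochrome c1, 1.40 for the mitochondrial chaperonin HSP60, 2.29 for MRX16, and 1.49 for SLT2, the kinase of the cell wall integrity pathway. YLR108C and YGR011W had 2.30 and 1.64. The yap1Δ means of these 8 ORFs ran from -0.14 to 0.11, and none passed the test. In wild type cells at the mild dose AAD4 averaged 0.15, MRX16 0.07 and HBN1 0.29. For AAD4 and MRX16 a mean near 0 at this dose was thus not particular to yap1Δ. The strains were not tested against each other on these genes. CYC1, GTT2 and OYE3 met all the limits of the class in every alternative run on the ORF values, while MRX16 and HBN1 met them in 9 of 16; among the spot-level values no spot met them.

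The 2 genes farthest above the line, RNR3 and HUG1, are targets of the DNA damage checkpoint. The list of ribonucleotide reductase and DNA damage genes rose as a whole in both groups (10 of 10 in acute cells and 10 of 10 in yap1Δ), with medians of 1.27 and 0.98, a median departure of 0.50, and 5 of 10 above the line. Among all ORFs, 32.5% rose in acute cells and 12.7% in yap1Δ, and 2.35% lay above the line. RNR3, the damage-inducible large subunit of ribonucleotide reductase, the enzyme that makes deoxynucleotides, gave 1.74, 1.40, 0.99 and 1.91 in acute cells. In yap1Δ it gave 3.91, 3.91, 3.08 and 3.08, at the ceiling on replicates 1 and 2, so every yap1Δ array lay above every acute array. The departure of RNR3 was 3.01 ± 0.16 (limma adjusted p = 4.8e-05), and its yap1Δ mean exceeded the acute mean by 1.98 ± 0.22 (adjusted p = 0.00022). HUG1, a small inhibitor of the reductase and a target of the Mec1 checkpoint kinase pathway, gave 1.85, 0.76, 1.16 and 1.69 against 3.50, 3.08, 2.87 and 2.87. Its departure was 2.64 ± 0.18 (adjusted p = 0.00013), and the groups did not overlap. RNR2, the small subunit, gave 1.73, 1.59, 1.73 and 2.05 against 2.17, 2.28, 2.04 and 2.28. Its yap1Δ mean was the higher by 0.41 ± 0.13 (adjusted p = 0.031), with replicate 3 of yap1Δ just below acute replicate 4. RNR4, the other small subunit, spread from 0.61 to 4.18 in acute cells and from 1.51 to 2.52 in yap1Δ, and its departure of 1.31 was lost in 9 of 17 alternatives.

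RNR3, HUG1 and RNR2 were 3 of only 8 ORFs that rose in both groups and were higher in yap1Δ by the direct contrast; the others, named here after their values were seen, were PAI3, TDA6, ARN2, YGR201C and TPH3. PST1 and CSI2 fell in both and were lower in yap1Δ. In wild type cells given the same mild dose, RNR3 gave 0.61, 0.10, 2.42 and 2.10 and HUG1 gave 1.66, 0.05, 2.73 and 2.73. All of these lay below every yap1Δ array, though they spread widely and were lower on the 2 arrays with the treated RNA in Cy3. That difference was not tested.

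**Figure D4:**
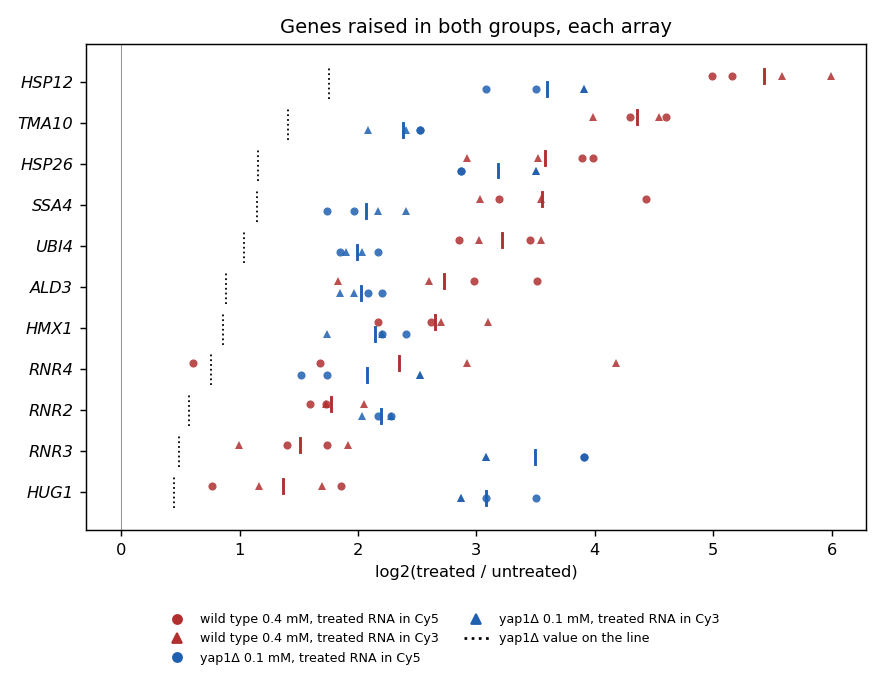
log2(treated / untreated) on each of the 8 arrays for the 8 genes with the largest shared rise and for RNR2, RNR3 and HUG1 (y axis); colours, symbols and ticks are red for wild type at 0.4 mM, blue for yap1Δ at 0.1 mM, circles for treated RNA in Cy5, triangles for Cy3, solid ticks for means and dotted ticks for the yap1Δ value on the line. RNR3 and HUG1 are the genes shown whose yap1Δ arrays all lie above their acute arrays. Among the rest, HSP12 reaches the yap1Δ ceiling of 3.91 and HSP26 comes nearest to it after HSP12.

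General stress genes rose in both groups, and 11 of the 23 measured rose in yap1Δ by more than the line gives, against 2.35% of all ORFs above it. CTT1, counted among the Yap1 targets above, was not on the general stress list and did not pass the test in acute cells. Of 24 listed genes of the Msn2 and Msn4 program, 23 were measured. Of these, 23 rose in acute cells and 21 in yap1Δ, where 32.5% and 12.7% of all ORFs rose. None lay below the line, which is near the share of 1.16% over all ORFs. The medians were 2.26 and 1.25 and the median departure 0.43. HSP12, a membrane-protecting small heat shock protein, gave 5.16, 4.99, 5.58 and 5.99 in acute cells and 3.08, 3.50, 3.91 and 3.91 in yap1Δ (departure 1.85 ± 0.10, limma adjusted p = 4.8e-05). It was at the yap1Δ ceiling on replicates 3 and 4, so its spread may be understated. TMA10, a ribosome-associated protein, averaged 4.36 and 2.38 (departure 0.98), TFS1, an inhibitor of carboxypeptidase Y, 2.84 and 1.88 (departure 0.96), and ALD3, a cytosolic aldehyde dehydrogenase, 2.73 and 2.02 (departure 1.14). In wild type cells at the mild dose HSP12 ranged from 0.60 to 0.90 over 4 arrays, below every yap1Δ array.

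Chaperones were mixed about the line. Of 22, 20 rose in acute cells and 14 in yap1Δ, where 32.5% and 12.7% of all ORFs rose. The medians were 1.33 and 0.58, with 3 above the line (2.35% of all ORFs) and 1 below (1.16%). HSP26, a small heat shock protein that holds unfolding proteins, gave 3.99, 3.89, 2.92 and 3.52 in acute cells and 2.87, 2.87, 3.50 and 3.50 in yap1Δ. The groups overlapped and the contrast between them did not pass the test (adjusted p = 0.26), which put HSP26 2.03 ± 0.19 above the line (adjusted p = 0.0010). The Hsp70 genes SSA4 (3.55 and 2.07) and SSA1 (1.56 and 1.25) and the small heat shock gene HSP42 (3.92 and 1.83) had positive departures that did not pass the test. HSP60 was the member below the line. UBI4, the stress-induced polyubiquitin gene, rose to 3.22 and 1.99 (departure 0.95, adjusted p = 0.0053).

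Protein breakdown genes rose in both groups. All 32 proteasome subunits rose in acute cells and 29 rose in yap1Δ, where 32.5% and 12.7% of all ORFs rose, with medians of 1.48 and 0.65. None was called off the line, where 2.35% of all ORFs lay above and 1.16% below, so a count of 0 is near that share. The largest departures were those of the subunits PRE3 (1.71 and 0.94) and RPN12 (1.28 and 0.80), at 0.39 and 0.38, and neither passed the test. RPN4, their activator, averaged 0.80 and 0.42. Of 8 vacuolar protease and autophagy genes, 7 rose in each group; PEP4, proteinase A, had 2.25 and 1.05, and ATG8, the autophagosome ubiquitin-like protein, 3.09 and 1.34.

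The iron regulon split. Of its 18 genes 15 rose and 1 fell in acute cells and 7 rose in yap1Δ, with 4 above the line and 1 below. Among all ORFs, 32.5% rose and 35% fell in acute cells, and 12.7% rose and 11.8% fell in yap1Δ. The shares off the line were 2.35% above and 1.16% below. HMX1, haem oxygenase, gave 2.17, 2.62, 2.70 and 3.10 against 2.41, 2.21, 1.74 and 2.21, with overlapping groups and a departure of 1.28 ± 0.16 (adjusted p = 0.0029). FIT2, a cell wall mannoprotein that retains siderophores, had 2.26 and 1.73, and the siderophore transporter ARN2 0.40 and 0.98, both above the line. FRE1, the ferric reductase, had 2.29 in acute cells and -0.18 in yap1Δ, and its departure of -0.92 did not pass the test (adjusted p = 0.072). The pentose phosphate pathway, which makes NADPH for both reductase systems, had 4 of 11 genes raised and 5 lowered in acute cells, and 4 raised and 3 lowered in yap1Δ. Its acute counts were near the shares over all ORFs. ZWF1, its first enzyme, had 2.91 and 0.60 (departure -0.34, adjusted p = 0.22), and the stress-induced forms SOL4 (2.65 and 1.70) and NQM1 (2.45 and 1.50) lay above the line, by 0.84 and 0.71. In trehalose and glycogen metabolism 11 of 12 genes rose and 1 fell in acute cells, and 7 rose and 2 fell in yap1Δ, beside the same shares over all ORFs. There NTH1 and GDB1, which break down trehalose and glycogen, lay above the line (departures 0.48 and 0.56), and the glycogen synthase GSY1 lay below it, with 0.91 in acute cells and -0.61 in yap1Δ (departure -0.90, adjusted p = 0.031).

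**Figure D5:**
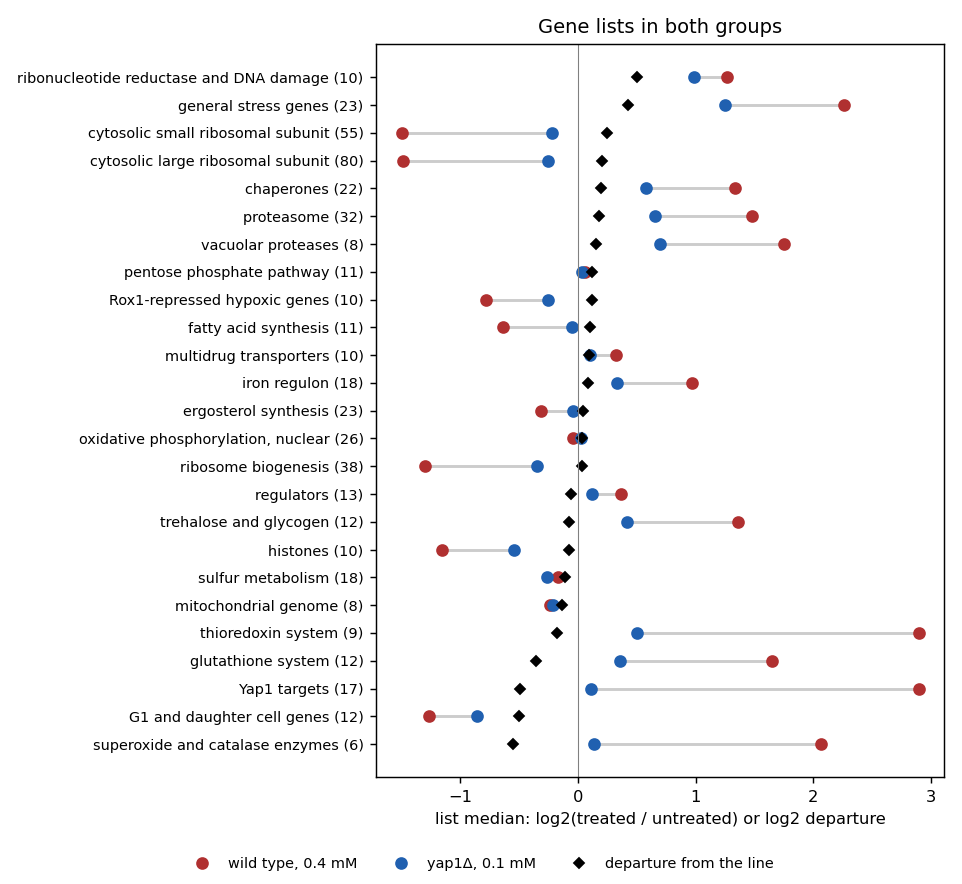
Median over the measured members of each gene list (y axis, number of members in brackets) of log2(treated / untreated) in wild type at 0.4 mM (red) and yap1Δ at 0.1 mM (blue), and of the log2 departure from the common line (black diamonds). Median departures run from -0.55 for superoxide and catalase enzymes, -0.50 for G1 and daughter cell genes and -0.49 for Yap1 targets to 0.43 for general stress genes and 0.50 for ribonucleotide reductase and DNA damage genes.

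Ribosomal protein genes fell in both groups, fewer of them in yap1Δ, as calls did over all ORFs (35% lowered in acute cells and 11.8% in yap1Δ). Of 80 measured large subunit genes 74 fell in acute cells and 24 in yap1Δ, with medians of -1.49 and -0.25, and of 55 small subunit genes 53 fell in acute cells and 10 in yap1Δ, with medians of -1.49 and -0.22. Above the line lay 5 large and 3 small subunit genes, where 2.35% of all ORFs lay. These were 8 of the 12 ORFs lowered in acute cells and flat in yap1Δ. On all ORFs below 0 in acute cells the slope was 0.231, so strongly lowered ORFs tended to lie above the line of slope 0.322. The median departures of the lists were 0.21 (large subunit) and 0.25 (small subunit). RPL8A gave -2.43, -2.78, -1.32 and -1.94 against -0.29, -0.21, 0.37 and 0.24 (departure 0.71 ± 0.12, adjusted p = 0.016). RPS9B averaged -2.28 and -0.22 (departure 0.51). The others were RPL8B, RPL17A, RPL26B, RPL5, RPS10A and RPS10B, with departures of 0.39 to 0.53, and most ribosomal protein genes have a near-identical copy, so a probe may read both. The remaining 4 ORFs of the class were not ribosomal. PMA1, the plasma membrane proton pump, gave -1.13, -1.32, -1.78 and -1.56 against 0.36, 0.32, 0.06 and 0.03 (departure 0.66 ± 0.08, adjusted p = 0.0031). PHO89, a phosphate transporter, averaged -2.30 and 0.23, and MCH5, a riboflavin transporter, -1.20 and 0.16. ERG1, squalene epoxidase, averaged -1.43 and -0.04. The yap1Δ values of PHO89 (0.83, 0.74, -0.37 and -0.26) and MCH5 took their sign from the dye.

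Without yap1Δ replicates 1, 2, 3 and 4 the 12 ORFs of that class became 1, 2, 1 and 2, without acute replicate 1 they became 7, and without acute replicate 3 they became 29. Ribosome assembly factors and histones fell in both groups, and the 0 of them called off the line is near the share over all ORFs. All 38 ribosome biogenesis genes fell in acute cells and 17 fell in yap1Δ, where 35% and 11.8% of all ORFs fell. Their medians were -1.30 and -0.35, and DBP2, an RNA helicase, had -3.18 and -0.83. Of 10 histone genes 9 fell in acute cells and 8 in yap1Δ, with medians of -1.16 and -0.54; HTZ1, the H2A.Z variant, had -1.08 and -0.56.

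Genes of G1 and of daughter cell separation fell in both groups, and 5 of 12 fell in yap1Δ by more than the line gives, against 1.16% of all ORFs below it. In each group 10 of the 12 fell, with medians of -1.26 and -0.86, where 35% of all ORFs fell in acute cells and 11.8% in yap1Δ. EGT2, a daughter-specific cell wall glucanase, gave -1.86, -1.36, -3.24 and -3.13 in acute cells and -1.39, -1.70, -2.11 and -2.11 in yap1Δ (departure -1.05 ± 0.16, adjusted p = 0.0081). SCW11, a cell wall glucanase of daughter cells, gave -1.88, -1.60, -1.96 and -1.89 in acute cells and a mean of -1.19 in yap1Δ, with -1.22, -1.30 and -1.23 on replicates 2, 3 and 4 (departure -0.60 ± 0.08, adjusted p = 0.0057). CTS1, the endochitinase that parts mother and daughter, was within the flat limits in acute cells at 0.26 and fell in yap1Δ, with -0.26, -0.52, -0.90 and -0.85 (departure -0.72 ± 0.09, adjusted p = 0.0031).

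CTS1 was among the 11 ORFs that changed in yap1Δ and were flat in acute cells, 6 of which rose and 5 of which fell in yap1Δ. Flat is a limit on size and not absence of change: CTS1 and TPH3 rose and CSI2 and ATP8 fell in acute cells by the test, by small amounts (means 0.26, 0.24, -0.24 and -0.27). FMP45, a membrane protein of the cell cortex, rose to 1.10, 1.38, 0.78 and 0.83 in yap1Δ against 0.31, 0.19, 0.35 and -0.07 in acute cells (departure 0.96 ± 0.10, adjusted p = 0.0018). CSI2 gave -0.46, -0.80, -1.04 and -1.11 against 0.12, -0.13, -0.57 and -0.39 (departure -0.77 ± 0.09, adjusted p = 0.0023). The other risers were IZH4, a membrane protein linked to zinc, at 0.64, HOM3, aspartate kinase, at 0.63, TPH3 at 0.60, YNL234W at 0.58 and MCH1 at 0.51. The other fallers were the mitochondrially encoded ATP synthase subunit ATP8 at -0.58, YOR135C at -0.54 and AXL2, which marks axial bud sites, at -0.53. The values of MCH1 and ATP8 came mainly from the arrays with the treated RNA in Cy5. The count of 11 became 6, 4, 4 and 5 without yap1Δ replicates 1, 2, 3 and 4 and 6 without acute replicate 1.

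OLE1, the fatty acid desaturase, met no class but crossed 0 between the groups. It gave -0.99, -1.46, -0.04 and 0.32 in acute cells and 0.58, 1.24, 1.33 and 1.66 in yap1Δ, without overlap, and its departure was 1.38 ± 0.16 (adjusted p = 0.0025). In wild type cells at the mild dose OLE1 gave 1.13, 1.15, 0.73 and 0.65, on the side of the yap1Δ arrays. MMP1, a transporter of S-methylmethionine, crossed the other way, from 0.71 to -0.69, though 2 of its 4 acute arrays lay below 0.

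Of 13 regulators measured, 8 rose and 3 fell in acute cells and 3 rose in yap1Δ, with medians of 0.37 and 0.12, and 0 of 13 off the line, near the share over all ORFs. Among all ORFs, 32.5% rose and 35% fell in acute cells and 12.7% rose in yap1Δ. HSF1 had 1.17 and 0.65, RPN4 is given above, and PDR1, the drug response activator, had 0.37 and 0.45. MSN2 and MSN4 had -0.04 and -0.08 in yap1Δ, neither past the test. SKN7, a partner of Yap1 at peroxide genes, fell by 0.56 in acute cells and gave -0.18 in yap1Δ, which did not pass the test. CAD1, the closest relative of Yap1, had 1.11 and 0.13. The lists of ergosterol, sulfur, fatty acid, hypoxic, oxidative phosphorylation, mitochondrially encoded and multidrug transporter genes had median departures between -0.14 and 0.12, with at most 2 members off the line on either side.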

How the data were processed

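Per the labels, each array set treated against untreated poly(A) RNA in Cy3 and Cy5. The authors deposited intensities of both channels per ORF, quantile normalized after background correction, and a table of spots whose log ratios are natural logs. Which scanner read each array was not given in the sources used here. From the deposited intensities log2(treated / untreated) was computed, without a pseudocount, for ORFs with values on the 8 arrays, and 5755 of 6251 ORFs were named through a RefSeq gene table. limma 3.58.1 (R 4.3.3) fitted group means and a dye term per ORF (residual df 5, prior df 4.27; median SE of a group mean 0.101). The 4 arrays per group limit the precision. The spot table (natural log converted to log2, each array centred on its median) was an alternative, as were no dye term, a dye term per group, a replicate block, centred arrays, loess (span 0.4), leaving out the dimmest 25% of ORFs, all 24 arrays, other lines, other class limits and leaving out each array. Array p-values deposited by the study were not used. Fits were tested on simulated data.

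The genes, lists and tests were chosen with earlier results of these data known. Named were YAP1, the 8 members of each class with the largest departure (for genes changed in both groups, the 8 with the largest smaller mean) whose arrays kept the same sign in each group called changed, all antioxidant list members and 2 to 4 members of the other lists with the largest departure; further class members were named to account for all of them. Replicate numbers were checked as pairs: deviations of same-numbered arrays correlated at 0.482 to 0.572, and at 0.001 to 0.112 once dye was removed, so numbers were not treated as pairs. Gene coordinates are not given because the build of the array is not stated.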

Additional observations from a re-analysis of the deposited data

Results flagged for a closer look

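On 6 occasions among the 294 sets of 4 arrays examined for the named genes, a single array stood far from the other 3. Chance alone gives about 1 in 20 such sets where the 4 values come from the same normal distribution, and the flags were fewer than that. Each set mixed both dye orientations, so that rate need not hold here. In yap1Δ, RPS9B was -0.44 on replicate 2 against -0.16, -0.13 and -0.16. In acute cells YCF1 was 1.56 on replicate 1 against 1.42, 1.43 and 1.40, and CYC1 was 2.58 on replicate 2 against 2.23, 2.20 and 2.25. Acute replicate 3 was the low array for the pentose phosphate genes SOL4 (1.93 against 2.91, 2.83 and 2.93) and ZWF1 (2.43 against 3.13, 3.06 and 3.01), and the high array for the hypoxic gene ANB1 (-0.24 against -1.24, -1.27 and -1.10). The slope of single arrays on the acute mean differed between yap1Δ and the other strains given the mild dose, by 0.302 from wild type, 0.277 from mga2Δ and 0.308 from rox1Δ (exact permutation adjusted p = 0.029 each, 4 of 4 yap1Δ arrays above all others). The parts of strain, array set, normalization and intensity in that difference cannot be told apart.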

How the results depend on the processing

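Of the 72 named genes called off the line, 19 kept their call under every alternative run for them on the ORF table: TRR1, GTT2, OYE3, CCP1, AAD4, HBN1, CYC1, SCW11, RNR3, HUG1, RNR2, HSP12, HSP26, TFS1, TMA10, UBI4, HMX1, ARN2 and FMP45. Counts below are given in the order called in yap1Δ (1373), differing between groups (2087), off the line (197), raised in acute and flat in yap1Δ (16), lowered and flat (12), changed in yap1Δ and flat in acute cells (11) and changed in both (442). Without the dye term they were 446, 975, 35, 4, 0, 1 and 287. With a dye term per group 2178 were called in yap1Δ, 505 lay off the line and the 3 flat classes held 32, 51 and 19. With the replicate block, which also absorbs dye, 836 were called in yap1Δ, 83 lay off the line and those classes held 7, 4 and 3; the numbers do not mark pairs here. In the fit of all 24 arrays 424 lay off the line and the classes held 31, 27 and 17. Over 10807 spots of the spot-level values, 178 were called in yap1Δ (171 up, 7 down), 3318 differed, 63 lay off the line (61 above, 2 below), and the classes held 0, 0, 2 and 130. The class changed in yap1Δ and flat in acute cells held 7 without the dimmest ORFs and 30 with a flat limit of 0.75, and the lowered and flat class 28 with the reduced major axis line. The slope was 0.411 by that line, 0.135 over spots and 0.208 between opposite dye orientations.

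Leaving out each array in turn gave slopes of 0.312 to 0.337, 3337 to 3882 calls in acute cells (3794 with all), 663 to 1830 in yap1Δ, 1566 to 2438 differences, 69 to 285 departures, and classes of 4 to 22, 1 to 29, 4 to 13 and 363 to 466. Leaving out each acute array from the x axis, the differences in slope stayed between 0.291 and 0.299 for wild type, 0.263 and 0.275 for mga2Δ and 0.295 and 0.303 for rox1Δ. The cause of these shifts was not tested.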
